A study of Mus musculus with 12 samples.

Results

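The genes described here encode ribosome biogenesis factors, the proteins that transcribe, modify, cut and fold ribosomal RNA in the nucleolus. They were chosen by name, as 45 nucleolar and RNA polymerase I genes, with earlier results of these data known. All 45 matched a row of the deposited count table, out of 35275 rows, and all 45 were among the 13821 genes with enough reads to test. The lowest raw count of any of them in any library was 489 reads, for Nop10, and the highest was 66438, for Ncl.

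The cells were Th17 cells, mouse T helper cells that secrete IL-17, differentiated in vitro. Wild-type naive CD4+ T cells were polarized for 72 h on plate-bound antibodies to CD3 and CD28 with TGF-B, IL-6 and antibodies against interferon gamma and IL-4, a treatment that all 4 groups shared. One group was untreated, and the others received Dex (dexamethasone, a glucocorticoid drug), the inflammatory cytokine IL-1B, or both agents (Dex+IL-1B), over the 4 h before harvest. Each group held 3 libraries of poly-A-selected RNA, called here by group and replicate number (untreated 1). The labels do not say whether these were separate cultures or mice, so the p-values measure the spread between these libraries, which may be technical. Doses, and the age and strain of the mice, are not given in the sources used here.

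Ribosome production starts when RNA polymerase I transcribes the ribosomal RNA precursor in the nucleolus. Small nucleolar ribonucleoproteins (snoRNPs) then modify that precursor, those of the box C/D class by ribose methylation and those of the box H/ACA class by converting uridine to pseudouridine. Large assemblies of processing factors cut and fold it into the small and the large ribosomal subunit. In T cells, activation and growth factor signals are known to raise this machinery together with cell size, and the transcription factor Myc, which binds the E-box sequence CACGTG, is a known activator of many of its genes.

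The promoters of the genes were read for that letter sequence, and the stretches that hold it are shown. Binding of Myc to them was not measured here. RefSeq gave a promoter (GRCm38.p6, 250 bases before to 50 after the start of transcription) for 40 of the 45 genes. The E-box CACGTG, which reads the same on both strands, was present in 10 of these 40, or 25%. It was present in 8.09% of the 27025 genes with a promoter in the table, in 11.7% of the 10021 of them that were tested, and in 16.9% of the 1291 called higher with IL-1B alone. The sequences below run 5′ to 3′ on the strand of the gene, with the E-box in capitals and up to 20 bases on each side.
Nop2 (chr6:125131803-125131848, + strand): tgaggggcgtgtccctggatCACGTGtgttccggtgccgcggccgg
Utp18 (chr11:93885761-93885806, - strand): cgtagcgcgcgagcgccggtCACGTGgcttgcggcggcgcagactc
Pes1 (chr11:3963957-3964002, + strand): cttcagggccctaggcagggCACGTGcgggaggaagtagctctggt
Utp4 (chr8:106893635-106893680, + strand): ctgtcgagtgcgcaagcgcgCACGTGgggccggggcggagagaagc
Wdr43 (chr17:71616212-71616257, + strand): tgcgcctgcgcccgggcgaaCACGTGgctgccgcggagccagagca
Tsr1 (chr11:74898084-74898129, + strand): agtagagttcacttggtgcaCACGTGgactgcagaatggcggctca
Ltv1 (chr10:13193088-13193129, - strand): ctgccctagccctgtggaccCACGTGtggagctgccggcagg
Grwd1 (chr7:45830740-45830775, - strand): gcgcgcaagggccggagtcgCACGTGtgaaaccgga
Utp20 (chr10:88826765-88826797, - strand): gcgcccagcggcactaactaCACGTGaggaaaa
Mybbp1a (chr11:72441347-72441376, + strand): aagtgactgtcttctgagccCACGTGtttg

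In Nop2 the E-box began 60 bases before the start of transcription (position -60) and in Utp18 at position -20. In the other 8 it began at positions 3 to 41, counted from 1 at the annotated start. All 10 of these genes were called higher with IL-1B alone, with log2 changes of 0.52 to 1.03 and a median of 0.72. Of the 30 genes whose promoter lacked these letters 27 were called higher, with a median log2 change of 0.78. The rest were Npm3, Nop10 and Wdr12. Of these, Npm3 and Nop10 were called when IL-1B 2 and Dex+IL-1B 1, described below, were left out. Whether the letters play a part in the rises was not tested. The gene with the smallest p, Rrp9, had no CACGTG in its window, which is shown whole for that reason.
Rrp9 (chr9:106477059-106477358, + strand): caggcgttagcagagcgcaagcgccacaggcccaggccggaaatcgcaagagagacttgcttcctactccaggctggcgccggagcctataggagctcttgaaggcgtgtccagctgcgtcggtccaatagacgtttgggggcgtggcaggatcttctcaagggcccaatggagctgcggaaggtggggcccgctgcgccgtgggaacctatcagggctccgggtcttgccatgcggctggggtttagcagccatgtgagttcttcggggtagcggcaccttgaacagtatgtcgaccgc

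A consensus for NF-kB, the factor through which IL-1B is best known to act, was searched on both strands as well. It was found in 4 of the 40 promoters, or 10%, against 12.3% of the tested genes with a promoter and 13.3% of those called higher with IL-1B alone. The median GC content of the 40 promoters was 58.6%, against 60.7% over tested genes. These matches describe letters only and were given no test.

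The libraries held 16904106 to 30445734 counts. Their cells carried the markers of T cells, summed over Cd3e, Cd3d, Cd3g, Cd4 and Lck to 1900 to 1964 CPM (counts scaled to a common library size) in untreated, 1678 to 1865 with Dex, 1518 to 1646 with IL-1B and 1460 to 1500 with both. Of the Th17 markers, Il17a ran from 8.96 to 152 CPM over the 12 libraries, Il17f from 43.7 to 533, Il23r from 20.2 to 35.7 and Ccr6 from 8.17 to 21.4. Markers of other cells were low. Over 5 B cell markers the sum was 39.0 to 63.0 CPM in untreated, 29.9 to 36.0 with Dex, 34.1 to 39.5 with IL-1B and 32.7 to 38.8 with both. Over 5 CD8 and NK markers it was 7.85 to 9.22, 7.62 to 11.2, 10.8 to 13.7 and 13.2 to 13.9 CPM, of which 2 could be tested (Cd8a and Cd8b1). Over 6 myeloid and dendritic cell markers it was at most 3.64 CPM, in untreated 1, and over 3 gamma-delta T markers at most 2.78. Lyz2, Cd14, Adgre1, Csf1r, Itgax, Ncr1, Klrb1c and Tcrg-V6 were at 0 in at least 1 library. The part of these markers in the results was not tested. The IL-1B 2 and Dex+IL-1B 1 libraries stood apart, with 14036 and 18550 CPM summed over Gm42418, Gm26917 and Lars2, whose loci overlap ribosomal RNA sequence, against 2328 to 5644 CPM in the other 10. Against the mean of the other 2 libraries of the group, 35 of the 45 genes were higher in IL-1B 2 and 42 in Dex+IL-1B 1. For this reason the number of the 45 genes called in each comparison that adds IL-1B is given with and without these 2 rRNA-high libraries. Other counts use all 12 libraries unless stated. Because these are bulk samples, more cells of a kind and more RNA per cell cannot be told apart.

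IL-1B raised most of the 45 genes, and Dex left them with no called change. With IL-1B alone 41 of the 45 genes rose, 0 fell and 4 were not called, where a call is an adjusted p under 0.05 in edgeR's quasi-likelihood test over all 13821 genes. Over all genes tested 21.4% were called, 11.9% higher and 9.51% lower. The median log2 change of the 45 genes was 0.74, against 0.00 over all genes, and the values ran from 0.04 for Nop10 to 1.27 for Polr1b. In 42 of the 45 the IL-1B libraries all lay above the untreated ones, which held for 20.2% of all genes tested, while 18.9% lay below without overlap. Without IL-1B 2 and Dex+IL-1B 1, 44 rose, with a median of 0.69, and only Wdr12 was not called (adjusted p = 0.237). Over all genes 3204 of 14098 were called then, against 2959 of 13821 with all libraries.

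The sum over the 45 genes was taken in each library, with most weight on the most abundant genes. It was 7545, 7097 and 7620 CPM in untreated 1, 2 and 3 and 7794, 6864 and 7446 CPM with Dex. It was 11598, 15039 and 11422 CPM with IL-1B and 14231, 10287 and 11069 CPM with Dex+IL-1B. All 6 libraries with IL-1B lay above all 6 without it, and the highest were the 2 that were also highest in rRNA-overlapping genes. Ncl and Npm1 weighed most in the sum. Their means were 1548 and 1457 CPM in untreated, where the sum had a mean of 7420. With IL-1B they were 2911 and 1972 CPM, against 12687 for the sum.

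**Figure D1:**
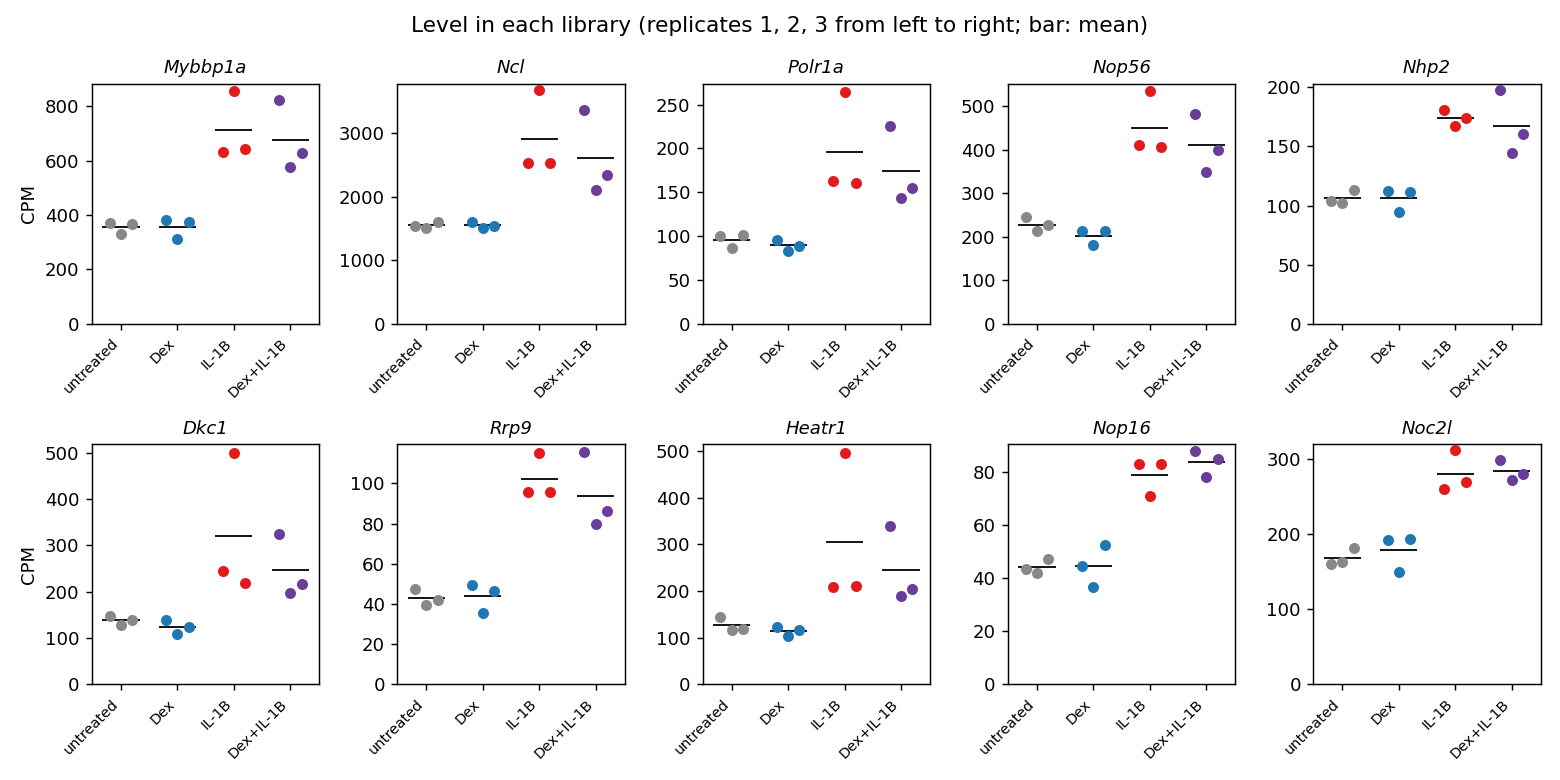
Level in CPM (axis from 0) of 10 members in each of the 12 libraries, by group, with replicates 1, 2 and 3 from left to right and a bar at the mean. In every panel the 6 libraries with IL-1B lie above the 6 without it. IL-1B 2 and Dex+IL-1B 1 are the highest of their groups in most panels, with Heatr1 at 495 CPM and Dkc1 at 498.8 CPM in IL-1B 2.

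All 3 listed subunit genes of RNA polymerase I were called higher with IL-1B alone. Polr1a, which encodes the largest catalytic subunit, stood at 100.4, 86.1 and 102 CPM in untreated 1, 2 and 3, at 95.8, 83.4 and 89.2 with Dex, at 163, 265 and 161 with IL-1B and at 225, 143 and 155 with the combination. The groups with IL-1B did not overlap those without it. Its log2 change was 1.03 ± 0.20 (SE, n = 3 a group) with IL-1B alone (adjusted p = 0.00375, edgeR) and 0.86 ± 0.20 with both against untreated (adjusted p = 0.0101), the latter call lost without untreated 2 (adjusted p = 0.0525). Polr1b, the other subunit of the catalytic core, rose by 1.27 ± 0.26 (adjusted p = 0.00539), and by 0.96 ± 0.14 without the 2 rRNA-high libraries. It had the largest value of the 45 with all libraries, next to Heatr1 at 1.27, while without those 2 the largest was that of Rrp9, at 1.16. Polr1c, which RNA polymerase III shares, rose by 0.45 ± 0.12 (adjusted p = 0.0199), and by 0.27 ± 0.08 without IL-1B 2 and Dex+IL-1B 1 (adjusted p = 0.0285). The Polr1c call was lost on leaving out untreated 1 (adjusted p = 0.0722) or untreated 2 (adjusted p = 0.0566) and in a fit of only the groups compared (adjusted p = 0.0654).

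Of the 6 nucleolar chaperones, scaffolds and helicases 5 rose with IL-1B alone and 0 fell. Ncl encodes nucleolin, an abundant RNA-binding protein of the nucleolus. Its level was 1535, 1510 and 1600 CPM in untreated, 1599, 1513 and 1532 with Dex, 2537, 3672 and 2524 with IL-1B and 3366, 2112 and 2336 with the combination. It rose by 0.91 ± 0.17 with IL-1B (adjusted p = 0.00259), and by 0.72 ± 0.06 without the 2 rRNA-high libraries. Mybbp1a, a nucleolar Myb-binding protein that takes part in ribosomal RNA processing, stood at 372, 329 and 367 CPM in untreated, 381, 313 and 376 with Dex, 634, 857 and 645 with IL-1B and 824, 577 and 627 with the combination. It rose by 1.00 ± 0.15 (adjusted p = 0.000769). Nolc1, a scaffold that binds snoRNPs, rose by 1.06 ± 0.19, and Ddx21, an RNA helicase of the nucleolus, by 0.82 ± 0.19. Of the nucleophosmins, Npm1, a histone chaperone of the outer nucleolus, rose by 0.44 ± 0.09 (adjusted p = 0.00344), and its paralogue Npm3 had 0.32 ± 0.11 and was not called (adjusted p = 0.0574). Npm3 was called without IL-1B 2 (0.42, adjusted p = 0.0141) and by DESeq2 (adjusted p = 0.0443), and Ddx21 lost its call without untreated 2 (adjusted p = 0.0545).

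Within each snoRNP class, core proteins that sit in the same particle had values that ranged, with all libraries, from not called to about 1 on the log2 scale or above. The range was narrower without the 2 rRNA-high libraries, where each was called. The box C/D values were then 0.51 for Fbl, 0.73 for Nop58 and 0.85 for Nop56. The box H/ACA values were 0.29 for Nop10, 0.57 for Gar1 and 0.75 for both Nhp2 and Dkc1. Nop56 and Nop58 are the paired scaffold proteins of the box C/D particle, and Fbl (fibrillarin) is its methyltransferase. Nop56 stood at 245, 213 and 227 CPM in untreated, 215, 180.1 and 213 with Dex, 410.3, 535 and 408 with IL-1B and 484, 350 and 399 with the combination, a rise of 0.98 ± 0.14 (adjusted p = 0.000562). Nop58 rose by 0.90 ± 0.14 (adjusted p = 0.00120). Fbl had 202, 199 and 250 CPM in untreated and 290, 191 and 324 CPM with IL-1B, so the groups overlapped through IL-1B 2, and was not called (0.31 ± 0.17, adjusted p = 0.221). Without IL-1B 2 it was called, at 0.51 (adjusted p = 0.0198).

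With all libraries the box H/ACA proteins also ranged widely. Dkc1 (dyskerin), the pseudouridine synthase, stood at 148, 129 and 140 CPM in untreated, 140, 109 and 125 with Dex, 245, 499 and 218 with IL-1B and 325, 197 and 217 with the combination. It rose by 1.21 ± 0.28 (adjusted p = 0.0109) and by 0.75 ± 0.10 when IL-1B 2 and Dex+IL-1B 1 were left out (adjusted p = 0.000381), and IL-1B 2 held far more than the other 2 libraries of its group. Its call was lost without untreated 2 (adjusted p = 0.0513). Nhp2, a core protein that binds the RNA, had 104, 103 and 113 CPM in untreated, 112, 94.5 and 111 with Dex, 181, 167 and 174 with IL-1B and 198, 144 and 161 with the combination, a rise of 0.71 ± 0.11 (adjusted p = 0.00106). Gar1 rose by 0.46 ± 0.12 (adjusted p = 0.0135), a call that leaving out 1 library ended in 3 cases, namely untreated 1 (adjusted p = 0.0540), untreated 2 (0.0669) and IL-1B 1 (0.0577). Nop10, the smallest protein of the particle, was not called (0.04 ± 0.17, adjusted p = 0.908) with 48.9, 27.0 and 51.2 CPM in the IL-1B libraries against 39.7, 41.3 and 43.1 CPM in untreated. Without IL-1B 2 it was called, at 0.28 (adjusted p = 0.0402).

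Levels within a particle also differed per length of transcript, taken as the longest principal transcript of the gene in GENCODE. In untreated cells Fbl stood at 181 ± 23.9 CPM per kb (SD, n = 3), Nop56 at 122 ± 8.58 and Nop58 at 98.3 ± 6.53. Nhp2 stood at 102 ± 5.72 CPM per kb, Gar1 at 49.99 ± 3.98, Dkc1 at 49.5 ± 3.26 and Nop10 at 37.3 ± 1.56, with Gar1 and Dkc1 within their spread of each other. The order depends on the length taken. Over merged exons Fbl has 4209 bases, Nop56 4099 and Dkc1 4121, against principal transcripts of 1197, 1877 and 2804.

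All 13 factors of the small subunit rose with IL-1B alone. Rrp9, a protein of the snoRNP that guides the first cuts of the precursor, stood at 47.5, 39.6 and 42.1 CPM in untreated, 49.7, 35.6 and 46.5 with Dex, 95.9, 115 and 95.5 with IL-1B and 115, 79.9 and 86.1 with the combination. Its rise of 1.25 ± 0.15 had the smallest adjusted p of the 45 (0.000260). Heatr1, a large scaffold of the processome, had 145, 116 and 120 CPM in untreated, 124, 105 and 116 with Dex, 210, 495 and 211 with IL-1B and 341, 189 and 206 with the combination. It rose by 1.27 ± 0.32 (adjusted p = 0.0174), with IL-1B 2 far above the rest of its group. Leaving out IL-1B 2 and Dex+IL-1B 1, the change was 0.74 ± 0.10 (adjusted p = 0.000319). The Heatr1 call was lost on leaving out untreated 2 (adjusted p = 0.0738) or untreated 3 (adjusted p = 0.0531), and with no low-count filter (adjusted p = 0.0653). Rrp12 rose by 1.07 ± 0.19 and Utp20 by 1.03 ± 0.21, both large factors of small subunit maturation. Nop14, Wdr43, Utp4, Utp15, Utp18 and Noc4l, further parts of the processome or its partners, rose by 0.58 to 0.84. Ltv1, a factor of late small subunit assembly, rose by 0.70 ± 0.09 (adjusted p = 0.000335) and Tsr1 by 0.52 ± 0.13, a call lost without untreated 2 (adjusted p = 0.0650). Bysl, also an assembly factor, rose by 0.87 ± 0.17. Bysl shares 361 exonic bases with Ccnd3 on the opposite strand, whose own log2 change with IL-1B was 0.06 ± 0.09 (adjusted p = 0.694). The change of Ccnd3 was -0.305 ± 0.093 with Dex alone (adjusted p = 0.224) and -0.544 ± 0.094 with Dex added to IL-1B (adjusted p = 0.0236). With both agents against untreated it was -0.485 ± 0.094 (adjusted p = 0.00345). The part of Ccnd3 reads in the Bysl values was not tested.

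Of the 16 factors of the large subunit 15 rose and 1, Wdr12, was not called. Nop16 stood at 43.4, 42.0 and 47.2 CPM in untreated, 44.8, 36.8 and 52.5 with Dex, 83.2, 71.1 and 83.3 with IL-1B and 88.0, 78.3 and 85.1 with the combination, a rise of 0.84 ± 0.12 (adjusted p = 0.000638). Noc2l, which takes part in large subunit transport, was the most abundant of these by CPM, with 160.0, 163 and 181 CPM in untreated, 192, 149.7 and 193 with Dex, 260.4, 311 and 269 with IL-1B and 299, 272 and 279.9 with the combination. It rose by 0.74 ± 0.11 (adjusted p = 0.000799). Both genes kept the libraries with IL-1B apart from those without it.

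Bop1, Pes1 and Wdr12 encode the partners of the PeBoW complex, which is needed for processing of the large subunit RNA. Bop1 rose by 0.85 ± 0.15 and Pes1 by 0.58 ± 0.11. Wdr12 had 61.8, 46.9 and 41.9 CPM in untreated and 65.7, 93.6 and 59.0 with IL-1B, so the groups overlapped through untreated 1, and its value was 0.54 ± 0.21 (adjusted p = 0.0838). It was called by DESeq2 (adjusted p = 0.0486) and without untreated 1 (adjusted p = 0.0435). Among the rest, Ftsj3, an RNA methyltransferase, rose by 0.95 ± 0.16 and Nop2, another, by 0.80 ± 0.15. Ebna1bp2, Wdr74, Noc3l, Rrs1, Gnl3 (nucleostemin, a GTP-binding nucleolar protein), Grwd1 and Brix1 rose by 0.59 to 0.82. The smallest rises were those of Rrp1b (0.47 ± 0.10) and Ppan (0.45 ± 0.11). Ppan and Grwd1 lost their calls without untreated 2 (adjusted p = 0.0768 and 0.0572).

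**Figure D2:**
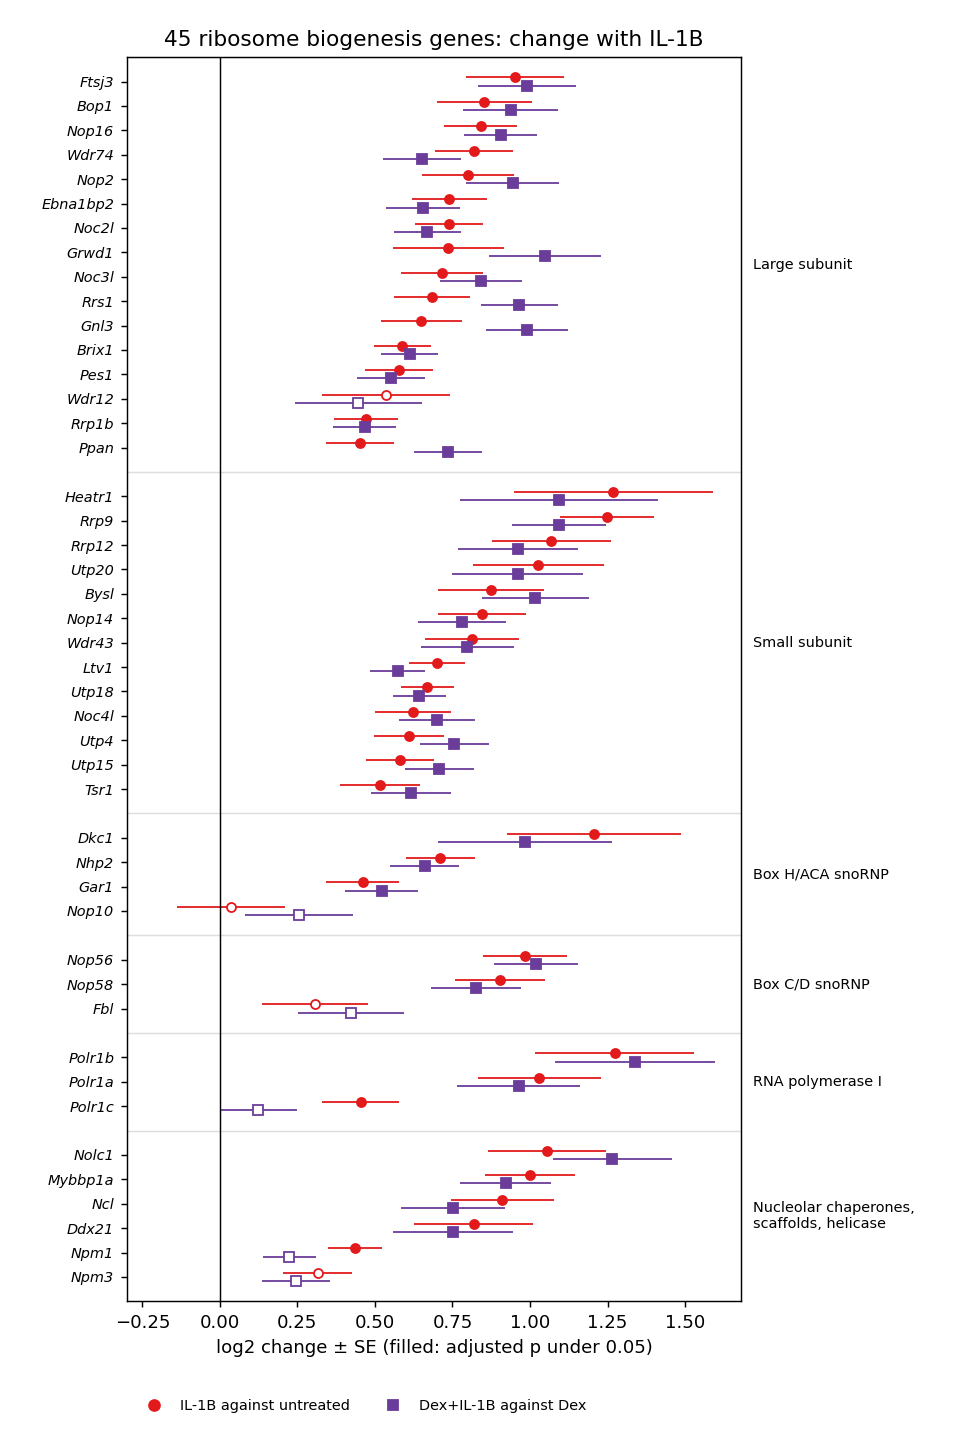
Log2 change ± SE of each of the 45 members, by role, for IL-1B against untreated (circles) and Dex+IL-1B against Dex (squares), filled where the adjusted p was under 0.05. All estimates lie above 0, and the open symbols are Npm3, Fbl, Nop10 and Wdr12 in both comparisons and Npm1 and Polr1c in the second only.

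Adding IL-1B to cells given Dex raised most of the same 45 genes. Against Dex alone 39 genes of the 45 were called higher, 0 lower and 6 in neither direction. Over all genes 13.6% were called, 8.6% higher and 4.98% lower. The median log2 change was 0.76, from 0.12 for Polr1c to 1.34 for Polr1b, against -0.02 over all genes, and in 42 genes the groups did not overlap (19.6% of all genes higher and 18% lower without overlap). Nop56 rose by 1.02 ± 0.14 (adjusted p = 0.000500), Rrs1 by 0.97 ± 0.12 (adjusted p = 0.000448), Nop16 by 0.90 ± 0.12 (adjusted p = 0.000469) and Gnl3 by 0.99 ± 0.13 (adjusted p = 0.000549). Npm1, Npm3, Polr1c, Fbl, Nop10 and Wdr12 were the 6 not called, though DESeq2 called Npm1 (adjusted p = 0.0438). Without IL-1B 2, Fbl (adjusted p = 0.0244) and Nop10 (0.0339) were called. Fbl was also called in a fit of only the groups compared (adjusted p = 0.0463). Npm3 and Nop10 were called without the 2 rRNA-high libraries (adjusted p = 0.0220 and 0.00864). Heatr1 (1.09 ± 0.32, adjusted p = 0.0442) and Dkc1 (0.98 ± 0.28, adjusted p = 0.0383) lost their calls when any of the 3 Dex libraries, untreated 2, Dex+IL-1B 1 or Dex+IL-1B 3 was left out (adjusted p up to 0.163 and 0.146), and Heatr1 also without untreated 3. Both calls were lost with no low-count filter as well (adjusted p = 0.137 and 0.128). Ddx21 (0.75 ± 0.19, adjusted p = 0.0217) lost its call if Dex+IL-1B 1, Dex 2 or Dex 3 was left out (adjusted p up to 0.0908). The Ddx21 call was also lost with no low-count filter (adjusted p = 0.0671). Without the 2 rRNA-high libraries 41 rose, with a median of 0.66. Over all genes 2079 of 14098 were called then, against 1876 of 13821 with all libraries.

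Against untreated cells the combination raised 39 genes, with 0 lower, against 18.2% of all genes called, 10.3% higher and 7.82% lower. The median log2 change was 0.72, and in 44 genes the groups did not overlap (20.6% of all genes higher and 18.5% lower without overlap), the exception being Fbl. Polr1c, Fbl, Dkc1, Nop10, Heatr1 and Wdr12 were not called. Dkc1 (0.83 ± 0.28, adjusted p = 0.0611) and Heatr1 (0.95 ± 0.32, adjusted p = 0.0613) were called without the 2 rRNA-high libraries, at 0.58 and 0.65 (adjusted p = 0.00172 and 0.000779), when 43 genes rose with a median of 0.58. Over all genes 3163 of 14098 were called then, against 2511 of 13821 with all libraries. In all, 38 genes were called higher both with IL-1B alone and with Dex+IL-1B. Leaving out untreated 2 ended 10 of the 39 calls, those of Npm3, Ddx21, Polr1a, Polr1b, Gar1, Utp20, Tsr1, Bysl, Rrp1b and Grwd1. Over all genes the calls then fell from 2511 of 13821 to 1262 of 14046. The comparisons of IL-1B alone and of Dex+IL-1B with untreated share the untreated libraries, so the 38 shared calls are not independent support for either.

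Dex gave no called change in any of the 45 genes. Against untreated, 11 had positive and 34 negative values, with a median of -0.10, against 0.00 over all genes, and 0 were called by edgeR, 0 at an unadjusted p under 0.05 and 0 by DESeq2. Over all genes tested 0.535% were called, 0.369% higher and 0.166% lower, and 1352 of 13821 had an unadjusted p under 0.05. Dex 2 lay below the mean of Dex 1 and Dex 3 in all but 1 of the genes, with a median log2 level of -0.25 against the untreated mean, while those of Dex 1 and Dex 3 were 0.01 and -0.04. The median change was -0.02 without Dex 2, -0.04 without untreated 1 and -0.15 without untreated 2. The most negative values were those of Grwd1 (-0.31 ± 0.18) and Bysl (-0.30 ± 0.17), and the most positive were those of Polr1c (0.21 ± 0.12) and Wdr12 (0.18 ± 0.21). Polr1c and Npm1 were higher in all Dex libraries than in all untreated ones, and Utp4, Grwd1 and Ftsj3 were lower, against 9.76% and 8.85% of all genes.

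Nor did adding Dex to IL-1B give a call. Of the 45 genes 14 had positive and 31 negative values, with a median of -0.05, and 0 were called by edgeR or DESeq2 (1 at an unadjusted p under 0.05, Ltv1 at -0.22 ± 0.09, adjusted p = 0.689). Over all genes tested 0.275% were called, 0.246% higher and 0.0289% lower, and 932 of 13821 had an unadjusted p under 0.05. Ltv1 was also the only one whose groups did not overlap, against 5.6% of all genes higher and 4.97% lower without overlap. The median was -0.18 without Dex+IL-1B 1, 0.06 without IL-1B 2, 0.02 without Dex+IL-1B 2 and -0.12 without both IL-1B 2 and Dex+IL-1B 1, so no direction is given for it. The 95% interval of the Dex effect, from the SE and 8 residual degrees of freedom, lay within a 1.5-fold change either way for 37 of the 45 genes without IL-1B and for 38 with it. The widest was that of Heatr1 in both cases, from -0.88 to 0.59 without IL-1B and from -1.05 to 0.41 with it, on the log2 scale. These intervals do not show an absence of effect.

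The interaction, which tests whether the effect of one agent differed with the other, was called for 0 of the 45 genes and 0 of all genes by edgeR, with 0 of the 45 at an unadjusted p under 0.05 and 0 of the 45 by DESeq2. Over all genes tested 427 had an unadjusted p under 0.05. Among the 45 the values ran from -0.33 ± 0.18 for Polr1c to 0.34 ± 0.19 for Gnl3, with a median of -0.01 (adjusted p = 0.989 for both). The intervals were wider here, and 25 of the 45 lay within a 1.5-fold change.

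**Figure D3:**
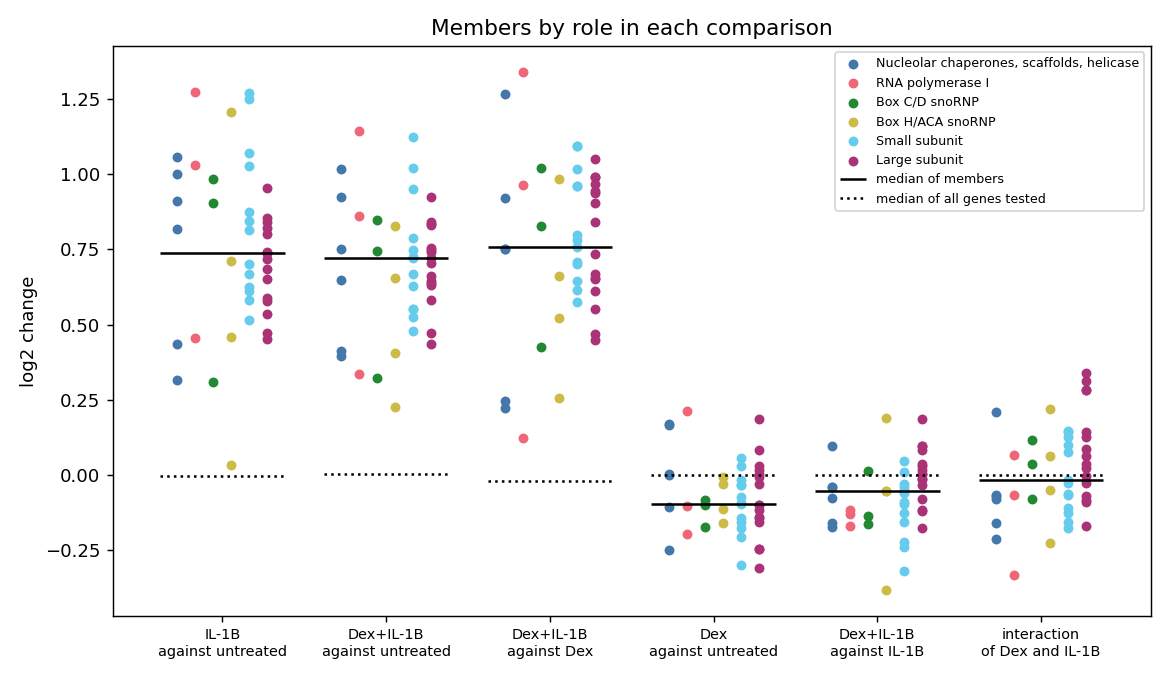
Log2 change of the 45 members (points, by role) in 5 comparisons and the interaction, with the median of the members (solid bar) and of all genes tested (dotted bar). The medians are 0.74, 0.72 and 0.76 in the 3 comparisons that add IL-1B, alone or with Dex, and -0.10, -0.05 and -0.01 in the Dex comparisons and the interaction.

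The 2 rRNA-high libraries differed from their groups in a way that went in part with transcript length, as did untreated 1. Against the other 2 libraries of its group, IL-1B 2 ran from -0.88 (log2) for Nop10 and -0.68 for Fbl, among the shortest transcripts at 1109 and 1197 bases, to 1.11 for Dkc1 and 1.23 for Heatr1. Heatr1 is among the longer transcripts, at 6780 bases, while Dkc1 is of middle length, at 2804. Not all short transcripts were low. Polr1c and Wdr74, at 1314 and 1204 bases, had 0.51 and 0.39 in IL-1B 2, and Fbl had 0.39 in Dex+IL-1B 1. Spearman's rho of the difference in IL-1B 2 with transcript length was 0.67 across the 45 genes and 0.30 across 12052 tested genes with a length. In Dex+IL-1B 1 it was 0.55 and 0.16, and in untreated 1 it was 0.43 and 0.16. The other libraries ran from -0.64 to 0.43 over the 45, and the most negative belong to the same groups as those 2 libraries, against which they were measured. Across the 45 genes rho of the IL-1B change with length was 0.45, and 0.20 without those 2 libraries. Genes are not independent replicates, and these values describe single libraries.

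**Figure D4:**
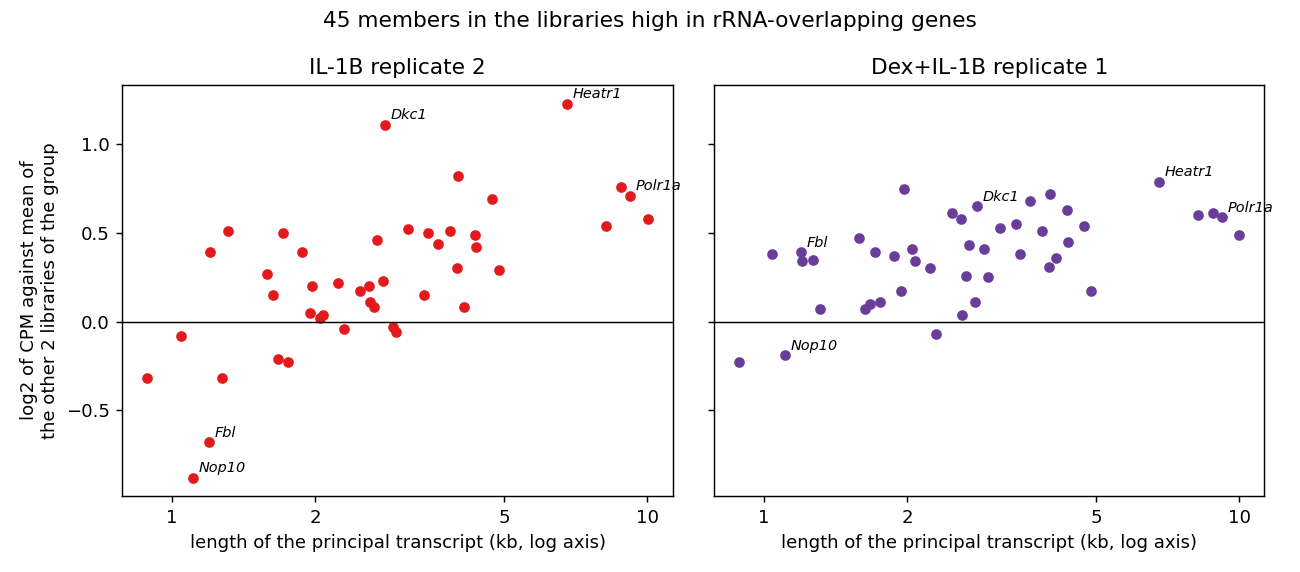
Each of the 45 members in IL-1B 2 (left) and Dex+IL-1B 1 (right): log2 of its CPM against the mean of the other 2 libraries of the group, by length of the principal transcript in kb (log axis). In IL-1B 2 the short transcripts of Nop10 and Fbl lie lowest, at -0.88 and -0.68, and Heatr1 and Dkc1 highest, at 1.23 and 1.11.

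Further genes of the pathway, 112 by a list drawn up from general knowledge, of which 111 were found and tested, gave no call in the lower direction in any of the 6 contrasts. With IL-1B alone 84 of the 111 rose, 0 fell and 27 were not called, with a median log2 change of 0.57. Of 41 further small subunit factors 34 rose, among them Wdr75 (0.82 ± 0.12, adjusted p = 0.000844), Ddx10 (0.61 ± 0.10) and Utp6 (0.69 ± 0.12). Of 49 further large subunit factors 37 rose, among them Mrto4 (0.79 ± 0.10, adjusted p = 0.000283), Rrp15 (0.99 ± 0.14) and Pa2g4 (0.62 ± 0.09). Of 8 snoRNP assembly factors 7 rose, among them Snu13 (0.59 ± 0.08, adjusted p = 0.000588), which is also a core protein of the box C/D particle, Ruvbl1 (0.57 ± 0.08) and Znhit6 (1.06 ± 0.16).

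The list of RNA polymerase I genes had the lowest median of the 4. Of 13 further subunits and transcription factors of that polymerase 6 rose, 0 fell and 7 were not called, with a median of 0.23. Rrn3, the initiation factor that responds to growth signals, rose by 0.91 ± 0.20 (adjusted p = 0.00633), the subunit gene Polr1f by 0.59 ± 0.13 (adjusted p = 0.00583) and Tcof1, a nucleolar partner of the polymerase, by 0.40 ± 0.10 (adjusted p = 0.0133). With Dex alone 0 of the 111 were called by edgeR (2 at an unadjusted p under 0.05), and with Dex added to IL-1B 0 (1 at an unadjusted p under 0.05). Positive values were held by 28 of the 111 with Dex alone (median -0.05) and by 44 with Dex added to IL-1B (median -0.03). Over all genes tested 6893 and 6953 were positive. These counts of signs were given no test. Over all 13821 genes tested, 1352 and 932 had an unadjusted p under 0.05 in these comparisons. With IL-1B added to Dex 83 rose and 0 fell.

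Myc, which is no member, stood at 249, 243 and 292 CPM in untreated, 299, 210 and 311 with Dex, 415, 340 and 422 with IL-1B and 431, 401 and 457 with the combination. It rose by 0.59 ± 0.14 with IL-1B alone (adjusted p = 0.00926) and by 0.65 ± 0.14 with IL-1B added to Dex (adjusted p = 0.00772), and was not called with Dex alone (0.06 ± 0.14, adjusted p = 0.944). Its part in the rises of the members was not tested.

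Overlapping genes could change the reads counted for some members, in a direction that is not known, since no strand setting is given. Of the 45 genes 19 share exonic bases with a gene on the opposite strand, and 8 of them share over 100 bases. The longest overlaps were those of Tsr1 with Srr (1240 bases), Noc2l with Samd11 (598) and Bysl with Ccnd3 (361). Srr held 7.4% and Samd11 1.1% as many reads as the member, while Ccnd3 held 470.1%. Pbrm1, which shares 15 bases with Gnl3, held 177.3%, and Parp3, which shares 20 with Rrp9, held 78.7%.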

How the data were processed

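Messenger RNA was measured in 12 libraries of mouse Th17 cells in 4 groups of 3. The authors deposited 1 table of raw counts per gene with 12 value columns, of which 0 were left unused. STAR 2.7.0a, HTSeq 0.6.1 and DESeq2 are listed as tools, per the submitters' processing notes, beside GRCm38 and mm10 as builds. Roles and settings are missing there, so the strand setting and the handling of copies are not given in the sources used here. Coordinates came from GENCODE M21 (GRCm38). Symbols came from it or, for identifiers it lacked, from a further list of gene names. With both, 34490 of 35275 identifiers had a symbol, and 0 lines named no gene. Totals were 16904106 to 30445734 counts; PCR copies are not independent molecules, so depth bounds counting error only.

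Counts were scaled by TMM and tested in R 4.3.3 with edgeR 4.0.16 (filterByExpr on group, robust quasi-likelihood, one model over 4 groups, 8 residual degrees of freedom, 13821 genes, 6 contrasts). The p-values were adjusted by Benjamini-Hochberg across those genes and come from edgeR unless DESeq2 is named, and calls are at 0.05. Log2 changes are ± SE with n = 3 a group, and CPM uses TMM library sizes. Named in every library were, per role, the member with the smallest p with IL-1B alone and that with the highest CPM; members called for Dex or the interaction were to be added, and there were 0. Members and lists were chosen with earlier results of these data known. The fits were tested on simulated counts. Alternatives were RLE scaling, no low-count filter, DESeq2 1.42.0, a fit of the compared groups alone, a replicate block, leaving out IL-1B 2 and Dex+IL-1B 1 together, and leaving out each library. DESeq2 gave no adjusted p for up to 1342 genes.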

Additional observations from a re-analysis of the deposited data

How the results depend on the processing

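The number of members called stayed within 1.5 times its main value in all 6 contrasts under every alternative run. With IL-1B alone it was 40 to 44 of 45 (RLE scaling 41, DESeq2 43) and 33 to 44 over single libraries left out, lowest without untreated 2. With both agents against untreated it was 37 to 43, and 29 to 44 over single libraries, again lowest without untreated 2. Without untreated 2 the calls over all genes also fell, from 2959 to 1555 and from 2511 to 1262 in these comparisons. With IL-1B added to Dex the number of members called was 36 to 41, also over single libraries. For Dex alone, Dex added to IL-1B and the interaction it was 0 throughout. Replicate numbers gave no pairing, since same-numbered libraries had correlations of -0.21 to 0.18, with 5 of 18 over 0.1; with the replicate block the counts were 41, 40 and 37, and with IL-1B added to Dex the calls of Heatr1 and Dkc1 were lost (adjusted p = 0.0571 and 0.0519). Across all alternatives 33, 29 and 36 members kept their call in the 3 comparisons that add IL-1B to untreated, with Dex, or to Dex. No member called under any setting was called lower. The cause of the lost calls was not tested.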
